A study of Homo sapiens with 5 samples.

Results

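The ST6 sialyltransferases are the Golgi enzymes that place sialic acid in the outermost position of many glycans, and all 8 human genes of the group were followed here: ST6GALNAC1 to ST6GALNAC6, ST6GAL1 and ST6GAL2. They were taken from the deposited table by symbol, using probe sets that name a single gene, which gave 24 of 49386 probe sets and 8 of 18239 genes. The group was chosen because ST6GALNAC2 was higher with both AURKA siRNAs and lower with MLN8237 than on both control arrays, so it was chosen by the measured values of that gene on these 5 arrays, which describe it and support nothing further.

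The cells were GFP-SAS, a squamous cell carcinoma line labelled as from the tongue and carrying green fluorescent protein. They received 10 nM siAURKA-1, 10 nM siAURKA-2, 100 nM MLN8237 (alisertib, an Aurora A kinase inhibitor), a non-targeting siRNA (siNT) or the vehicle DMSO, each for 24 h. AURKA encodes Aurora kinase A, which acts at centrosomes and the mitotic spindle. Each group was 1 Affymetrix GeneAtlas array, so no difference below has a replicate check, no error can be attached to any value, and precision is limited by having 5 arrays.

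Sialyltransferases transfer sialic acid from its activated form, CMP-sialic acid, to a growing sugar chain. The ST6GALNAC enzymes extend N-acetylgalactosamine, either in the O-glycans of mucin-type glycoproteins or in gangliosides, the sialylated lipids of the cell surface. The ST6GAL enzymes extend galactose at the ends of N-glycans. In carcinomas this family is best known for truncated, sialylated O-glycans such as sialyl-Tn and for sialylated N-glycans on integrins and growth factor receptors.

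The values were read as log2 signals. The logarithm base was not given, so every fold rests on that reading. The values had been centred by the authors on the median of each probe set over the 5 arrays. They compare arrays for 1 gene, give no expression level, and do not show whether a gene is expressed in these cells. A value of 0 marks the array at the median, or several arrays tied there, and 53 of the 120 values of the 24 probe sets were exactly 0. Differences are given as log2, treated or transfected array minus control array, and a gene is counted as different at 2-fold (log2 1) or, for the wider lists, at 1.5-fold (log2 0.58).

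The target of the knockdown was examined first. AURKA, read by 1 probe set, had a centred value of -3.36 on the siAURKA-1 array, -2.64 on the siAURKA-2 array and 0.64 on the MLN8237 array, against 0.00 on the siNT and 0.15 on the DMSO array. It was thus 10.3-fold (siAURKA-1) and 6.24-fold (siAURKA-2) lower than on the siNT array, and 1.40-fold higher with MLN8237 than with DMSO. The tongue squamous origin could not be checked by level. Of 7 squamous epithelial markers 4 were measured, and of 20 markers of fibroblasts, leukocytes and endothelium 19 were measured, with 0 of those 19 differing by 1.5-fold in any of the 4 main comparisons (largest difference 0.16). Of the 4 squamous markers, KRT5, a basal keratin, was at -1.82 for siAURKA-2 minus siNT and -2.01 for siAURKA-2 minus DMSO, against 0.32 for siAURKA-1 minus siNT. DSG3, a desmosomal cadherin, was at 0.62 for siNT minus DMSO. KRT14 and SFN stayed within 1.5-fold in those 4 comparisons. ST6GALNAC2 was 1.26 above siNT with siAURKA-1 and 1.39 above it with siAURKA-2, and a link with KRT5 was not tested.

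ST6GALNAC2 was the member that stood apart from the rest of the family. Its enzyme adds sialic acid to the N-acetylgalactosamine at the base of O-glycans, with a preference for chains that already carry galactose. The centred value was 1.26 on the siAURKA-1 array, 1.39 on the siAURKA-2 array and -0.62 on the MLN8237 array, against 0.00 on the siNT and -0.13 on the DMSO array. Both siRNA arrays were high, the MLN8237 array was the lowest of the 5, and the controls lay between them and close together. Each array measured RNA pooled from a whole culture, so more cells with the transcript and more transcript per cell cannot be told apart.

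**Figure D1:**
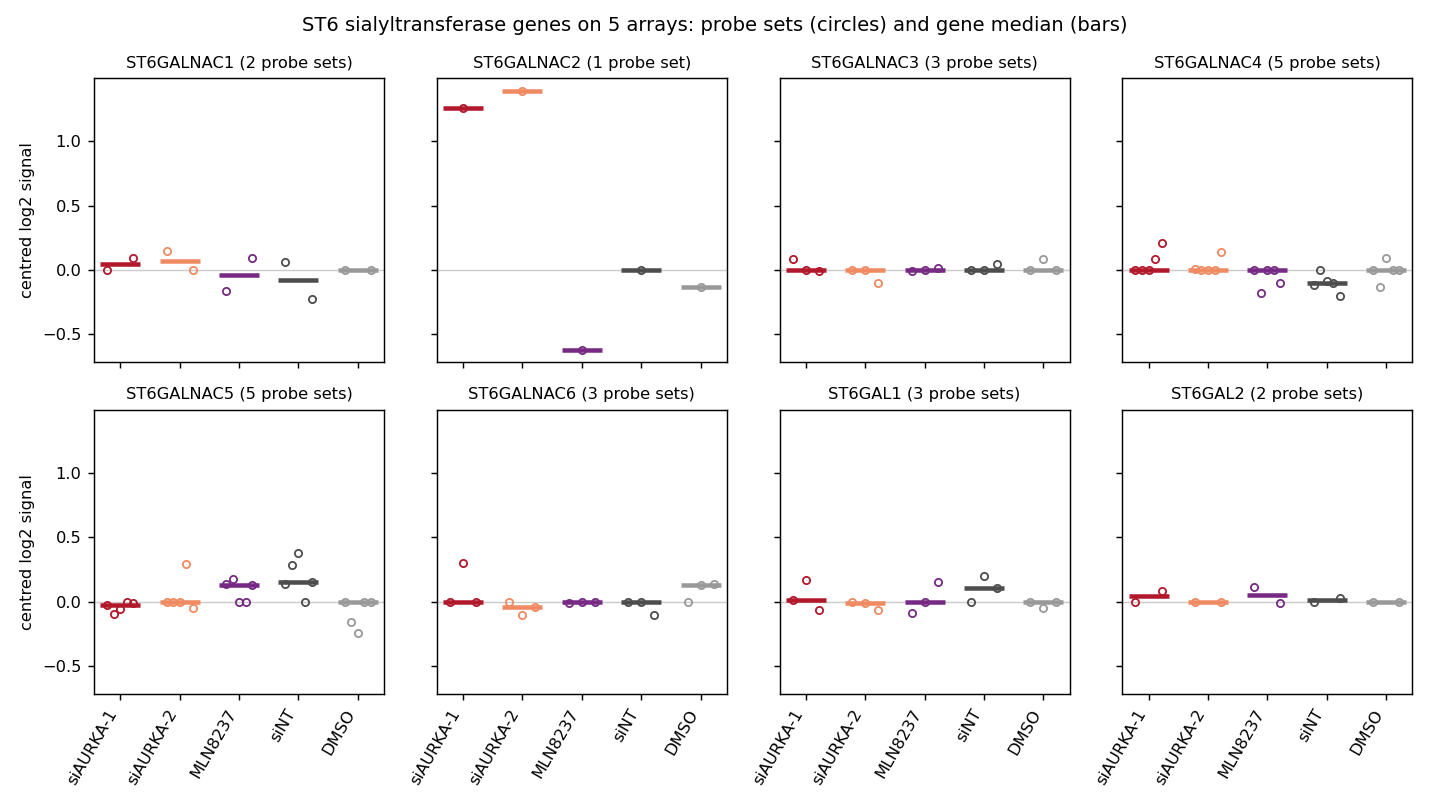
Centred log2 signal (vertical axis, the same scale in every panel) of the 8 ST6 genes on the 5 arrays (horizontal axis), with a circle for each probe set and a bar for the gene's median. ST6GALNAC2, with 1 probe set, spans -0.62 to 1.39, whereas the medians of the other 7 genes stay between -0.11 and 0.16. Single probe sets of those 7 genes run from -0.24 to 0.38.

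Against its transfection control, ST6GALNAC2 was 2.40-fold higher with siAURKA-1 (log2 difference 1.26) and 2.62-fold higher with siAURKA-2 (1.39). The arrays of the 2 siRNAs differed from each other by -0.13 (siAURKA-1 minus siAURKA-2), about as much as siNT and DMSO did (0.13, siNT minus DMSO). The siNT array did not decide the size: against DMSO the differences were 1.39 and 1.52. With MLN8237 the gene was 1.40-fold lower than with DMSO (-0.49) and 1.54-fold lower than with siNT (-0.62), short of 2-fold against either control. The widest gap was between knockdown and inhibition, where siAURKA-1 lay 3.69-fold (1.88) and siAURKA-2 4.02-fold (2.01) above MLN8237. By the rule that chose the gene, the widest gap had to lie there. All of these values come from a single probe set, so no second probe set was at hand to compare with it.

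Ordered by ST6GALNAC2, the arrays ran siAURKA-2, siAURKA-1, siNT, DMSO and MLN8237 from high to low. Ordered by AURKA mRNA they ran MLN8237, DMSO, siNT, siAURKA-2 and siAURKA-1, the reverse order except for the place of the siRNAs. The rule that chose ST6GALNAC2 had already placed both siRNA arrays above the controls and MLN8237 below them. For ST6GALNAC2, only the order within the siRNAs and within the controls was free. The rule did not set the AURKA order, in which MLN8237 was highest (0.64, against 0.15 with DMSO). The reversal is a description and shows no link. Without replicates it cannot be said which neighbours in either order differ beyond their spread, and 5 arrays are too few for a correlation.

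The size of these differences was set beside all genes measured. In siAURKA-1 minus siNT, 1.96% of all genes were at least 2-fold apart (0.587% higher), and 1 of the 8 members was, ST6GALNAC2, which ranked 165 of 18239 by absolute difference. In siAURKA-2 minus siNT the share was 1.26% (0.389% higher), again with 1 of 8 members, and the rank was 53. In MLN8237 minus DMSO, where 0.0658% of genes were at least 2-fold apart and 0.482% at least 1.5-fold, 0 of 8 members reached either size and ST6GALNAC2 ranked 151. Between the controls, where 0.296% of all genes reached 2-fold, 0 of 8 members did and ST6GALNAC2 ranked 5798. The siRNA and inhibitor comparisons were also read together. Counting for each gene the margin of the lower siRNA array over the higher control array, ST6GALNAC2 had the largest margin of all 18239 genes (1.26). IFNE (1.12), ANKRD22 (1.08) and GULP1 (1.06) were the other genes with a margin of at least 2-fold, which made 0.0219% of genes. By how far MLN8237 lay below the lower control it ranked 18 (0.49). The direction alone was common, with 862 genes (4.73%) above both controls with both siRNAs and below both with MLN8237, and 1 of the 8 ST6 genes among them. As these values chose the gene, the ranks are a description. They also set ST6GALNAC2, with 1 probe set, beside genes whose values are medians of several probe sets.

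**Figure D2:**
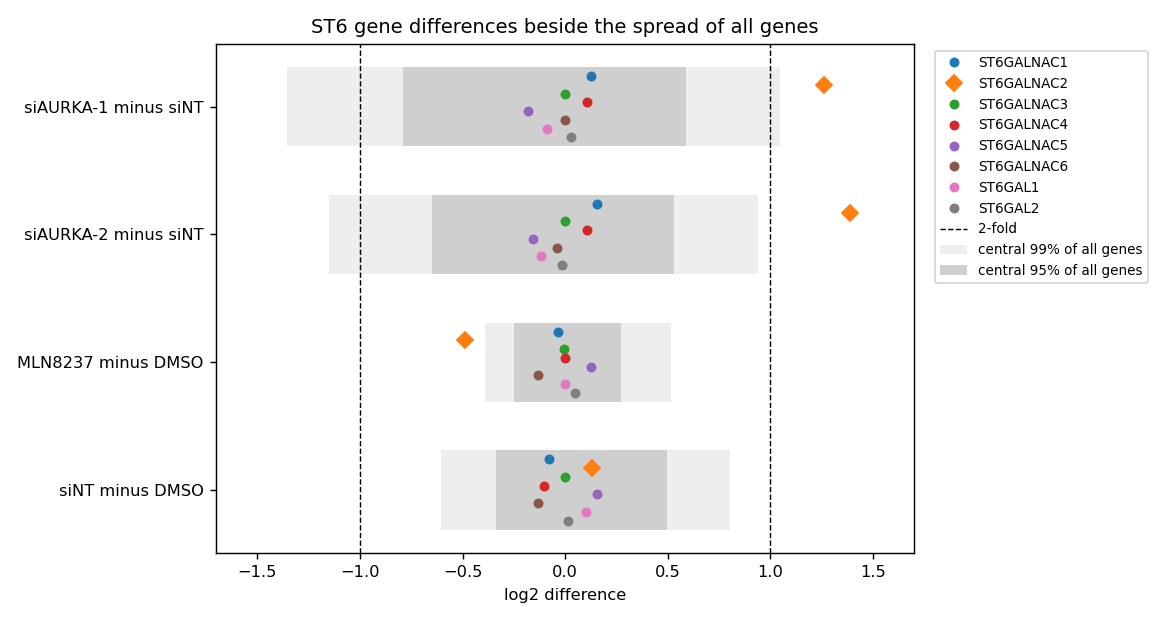
Log2 differences (horizontal axis) of the 8 ST6 genes in 4 comparisons (rows), over bars that hold the central 95% (dark) and 99% (pale) of all 18239 genes. ST6GALNAC2 (diamond) lies outside the pale bar at 1.26, 1.39 and -0.49 and inside the dark bar between the controls (0.13), whereas the other 7 genes lie within the dark bars in each comparison.

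ST6GALNAC1, the enzyme of sialyl-Tn synthesis, acts like ST6GALNAC2 on N-acetylgalactosamine of O-glycans. It had 0.05 on the siAURKA-1 array, 0.07 on the siAURKA-2 array and -0.04 on the MLN8237 array, against -0.08 on the siNT and 0.00 on the DMSO array. These values gave differences of 0.13 and 0.15 from siNT for the siRNAs and -0.04 from DMSO for MLN8237. Its 2 probe sets went in opposite directions for siAURKA-1 and MLN8237, and both were higher than siNT for siAURKA-2 (by 0.08 and 0.23).

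ST6GALNAC3 and ST6GALNAC4 add a further sialic acid to O-glycans or gangliosides that already carry one. ST6GALNAC3 was the flattest member by gene median, with values from -0.0045 to 0.00 on the 5 arrays, and 2.13% of all genes had a smaller range. Its 3 probe sets, taken singly, ran from -0.10 to 0.09, so the flatness belongs to their median. ST6GALNAC4 was at 0.00 on the siAURKA-1, siAURKA-2 and MLN8237 arrays, against -0.11 with siNT and 0.00 with DMSO. Of its 5 probe sets 4 were higher than siNT for either siRNA, by up to 0.41 (siAURKA-1) and 0.34 (siAURKA-2), and on the siNT array 4 of 5 lay below DMSO. The difference of 0.11 from siNT was therefore 0.00 when DMSO served as the control.

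ST6GALNAC5 and ST6GALNAC6 act mainly on gangliosides. ST6GALNAC5 had -0.03 on the siAURKA-1 array, 0.00 on the siAURKA-2 array and 0.13 on the MLN8237 array, against 0.16 on the siNT and 0.00 on the DMSO array. Here the siNT array was the highest, and of 5 probe sets 4 were below it for either siRNA. Against DMSO the gene was at -0.03 and 0.00. One of its probe sets was 0.62 higher with siNT than with DMSO, the widest difference of the 23 probe sets outside ST6GALNAC2 in that comparison and the only one of them past 1.5-fold in the 4 comparisons plotted. ST6GALNAC6 had 0.00 on the siAURKA-1 array, -0.04 on the siAURKA-2 array and 0.00 on the MLN8237 array, against 0.00 on the siNT and 0.13 on the DMSO array. The DMSO array alone stood above the rest, and all 3 probe sets were lower with MLN8237 than with DMSO, by 0.01 to 0.14. ST6GALNAC4 and ST6GALNAC6 neighbour each other in the RefSeq table of GRCh38.p14, which also lists a noncoding gene named for both and AK1, so signal of the pair may be shared.

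ST6GAL1, the main enzyme placing sialic acid on N-glycans, showed little difference on any array. It had 0.02 on the siAURKA-1 array, -0.01 on the siAURKA-2 array and 0.00 on the MLN8237 array, against 0.10 on the siNT and 0.00 on the DMSO array. The differences from siNT were -0.09 and -0.12, and those of its 3 probe sets reached -0.17 and -0.21. ST6GAL2, a second N-glycan enzyme of narrower tissue expression, ranged from 0.00 to 0.05 over the 5 arrays.

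Taken without ST6GALNAC2, the 7 members had differences from -0.18 to 0.13 with siAURKA-1 minus siNT, from -0.16 to 0.15 with siAURKA-2 minus siNT and from -0.13 to 0.13 with MLN8237 minus DMSO. Between the controls they ran from -0.13 to 0.16 (siNT minus DMSO), a similar span. The median of all 8 members was 0.01 for siAURKA-1, -0.01 for siAURKA-2 and -0.0023 for MLN8237, beside a median of 0.00 over all genes in each comparison. Among the 7, the number with an absolute difference no larger than the median of all genes was 4 for siAURKA-1, 3 for siAURKA-2 and 4 for MLN8237. Because centred values hide the expression level, an unexpressed gene and an expressed gene that did not differ cannot be told apart among these 7.

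The chromosomal surroundings of ST6GALNAC2 were read next, a choice made after its values were seen. ST6GALNAC1 lies close to it in the RefSeq table, and of the 6 protein-coding genes on either side 11 of 12 were measured. None of the 11 differed by 1.5-fold in the 3 treatment comparisons or between the controls, where at that size 7.05%, 5.08%, 0.482% and 2.08% of all genes differed. Their differences ran from -0.26 (SRSF2, a splicing factor) to 0.20 (JMJD6, a lysyl hydroxylase) with siAURKA-1, and from -0.19 (SRSF2) to 0.27 (METTL23, a methyltransferase) with siAURKA-2. With MLN8237 they ran from -0.11 to 0.10. The immediate neighbour PRCD, a photoreceptor protein gene, had differences of -0.13 for siAURKA-1, 0.00 for siAURKA-2 and -0.11 for MLN8237.

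**Figure D3:**
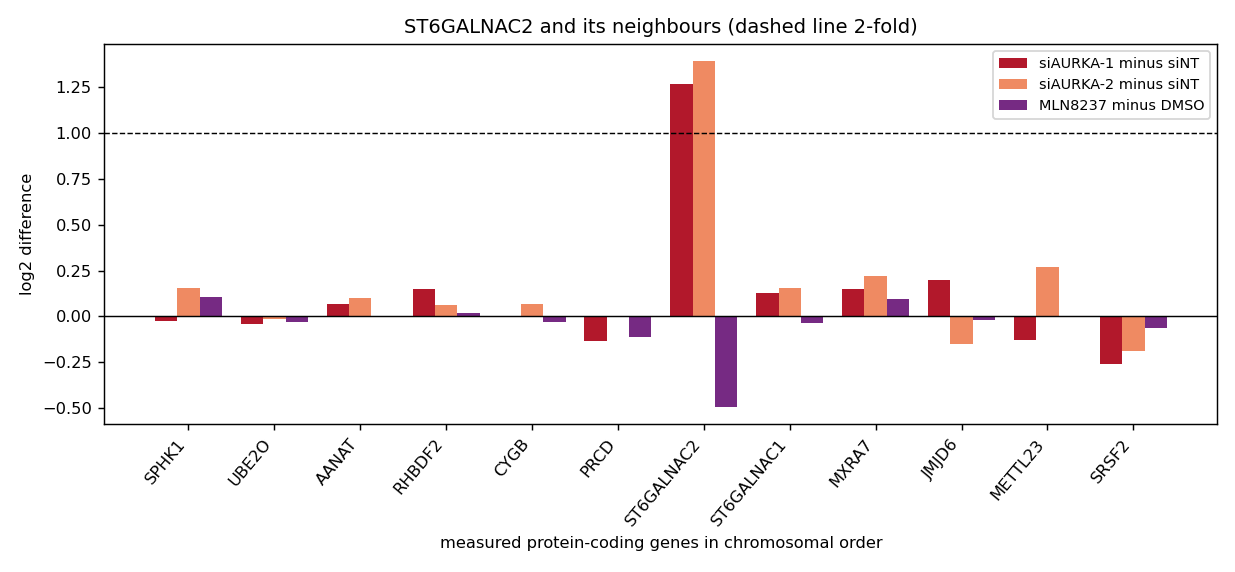
Log2 difference (vertical axis) of ST6GALNAC2 and the 11 measured genes among the 6 protein-coding neighbours on each side, in chromosomal order, with a bar for each of 3 comparisons. Only ST6GALNAC2 passes the dashed 2-fold line, and the neighbours stay between -0.26 and 0.27.

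Other sialyltransferases were compared as the nearest families. The 6 ST3 genes, whose enzymes cap galactose through a different linkage, showed median differences of -0.01 for siAURKA-1, 0.01 for siAURKA-2 and -0.03 for MLN8237, and those of the 6 ST8 genes, which build chains of sialic acid, were 0.00, 0.00 and -0.00029. In both families 0 genes reached 1.5-fold in these comparisons, where 7.05%, 5.08% and 0.482% of all genes did. In families this small, 0 is near those shares. Across all 20 sialyltransferase genes of the 3 families ST6GALNAC2 was the one past that size in the siRNA comparisons with siNT. It had been chosen for its values, so this is a description.

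The genes that supply the sugar donor were read from a list of 5. GNE and NANS (early steps of sialic acid synthesis), NANP (its phosphatase), CMAS (which activates it to CMP-sialic acid) and SLC35A1 (which carries CMP-sialic acid into the Golgi) gave 0 genes past 1.5-fold in any of the 3 treatment comparisons. At that size 7.05%, 5.08% and 0.482% of all genes differed, so 0 of 5 is near those shares. With siAURKA-1 NANP was at -0.42, NANS at -0.21, GNE at -0.03, CMAS at 0.29 and SLC35A1 at 0.37. With siAURKA-2 NANS was at -0.42, NANP at -0.27, GNE at -0.13, SLC35A1 at 0.00 and CMAS at 0.04. NANS and NANP thus lay below siNT with both siRNAs by less than 1.5-fold, and NANS was at -0.37 and -0.58 against DMSO. With MLN8237 the 5 genes lay between -0.07 and 0.03.

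Of 7 genes for the removal and breakdown of sialic acid, 1 was 1.5-fold above siNT with each siRNA. Of all genes, 2.57% (siAURKA-1) and 1.96% (siAURKA-2) were, and the share with both siRNAs was not counted. That 1 gene was read by 1 probe set. NEU1, the lysosomal sialidase, had 0.81 on the siAURKA-1 array, 0.51 on the siAURKA-2 array and 0.00 on the MLN8237 array, against -0.17 on the siNT and -0.25 on the DMSO array. It was 0.98 and 0.67 above siNT, and 0.25 above DMSO with MLN8237. Unlike ST6GALNAC2, it was not lower with the inhibitor. CTSA, the protective protein that holds NEU1 in its lysosomal complex, gave 0.20, 0.14 and -0.18.

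The enzymes that make the acceptor of ST6GALNAC2 included genes that went different ways with the siRNAs. The GALNT enzymes add the first N-acetylgalactosamine to a protein. Against siNT, 1 of 18 measured was 1.5-fold lower for siAURKA-1 and 2 for siAURKA-2, 0 were higher, and the medians were 0.00 and 0.01. Of all genes, 4.48% and 3.11% were 1.5-fold lower and 2.57% and 1.96% higher in these comparisons. Against DMSO, 3 were 1.5-fold higher and 1 lower for siAURKA-1, and 1 higher and 2 lower for siAURKA-2. The share of all genes at that size against DMSO was not counted. There, 95% of all genes had absolute differences up to 0.67 (siAURKA-1) and 0.59 (siAURKA-2), so sizes past 1.5-fold were not rare. GALNT1, named after its values were seen, was 0.49 and 0.47 above siNT and 0.66 and 0.63 above DMSO. With MLN8237 it was at -0.03 against DMSO and -0.20 against siNT. GALNT3 had -0.98 with siAURKA-1 and 0.06 with siAURKA-2, against 0.70 with siNT and 0.00 with DMSO, so that its differences from siNT (-1.68 and -0.64) became -0.98 and 0.06 against DMSO. Of its 3 probe sets 2 shared the direction with siAURKA-1 and 3 with siAURKA-2. GALNT18 was at -0.19 and -0.62 relative to siNT.

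Core synthesis follows. C1GALT1, which adds the galactose that makes the core favoured by ST6GALNAC2, had 0.64 with siAURKA-1 and -0.34 with siAURKA-2, against 0.77 with siNT and 0.00 with DMSO. It was -0.13 and -1.11 relative to siNT, but 0.64 and -0.34 relative to DMSO, so the direction with siAURKA-1 depends on the control. With MLN8237 it was at -0.09 against DMSO and -0.85 against siNT. C1GALT1C1, the chaperone C1GALT1 needs, was at 0.46 for siAURKA-1, 0.04 for siAURKA-2 and -0.23 for MLN8237. GCNT1, which branches the same core, was at 0.00 with either siRNA. GCNT3, another branching enzyme, was at 0.12 and 0.27, and B3GNT3, which extends O-glycans, at 0.05 and -0.37. B3GNT6, which makes a different core, was at 0.05 and -0.02, and GCNT4, a further branching enzyme, at 0.00 and -0.04.

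In the remaining lists single genes stood out. B4GALT3, a galactosyltransferase of N-glycans, differed from siNT by 0.61 (siAURKA-1) and -0.04 (siAURKA-2), and from DMSO by 0.50 and -0.15, short of 1.5-fold. UGCG, the first enzyme of glucosylceramide and ganglioside synthesis, was at 0.08 and 0.59. PODXL, a sialylated surface mucin, was at -0.91 and -0.03 against siNT but at -0.12 and 0.76 against DMSO, as the siNT array lay 0.79 above DMSO. SDC1, a heparan sulphate proteoglycan of epithelia, was at 0.35 and -0.85 against siNT, and at 0.40 and -0.80 against DMSO. Over all 75 genes of the 9 lists outside the ST6 family, siAURKA-1 gave 2 at least 1.5-fold higher and 2 lower (2.57% and 4.48% of all genes), and siAURKA-2 gave 2 higher and 4 lower (1.96% and 3.11% of all genes). MLN8237 gave 0 in each direction (0.367% and 0.115% of all genes). Between the controls 4 were higher and 0 lower for siNT minus DMSO (1.53% and 0.554% of all genes). None of the 75 was 2-fold higher with either siRNA against siNT. This depends on the control, since 2 of the 75 were 2-fold higher for siAURKA-1 minus DMSO. They were GALNT7 (1.34), another enzyme of O-glycan initiation, named here after its values were seen, and NEU1 (1.06). The share of all genes 2-fold higher in that comparison was not counted, so whether 2 of 75 exceeds it cannot be said.

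**Figure D4:**
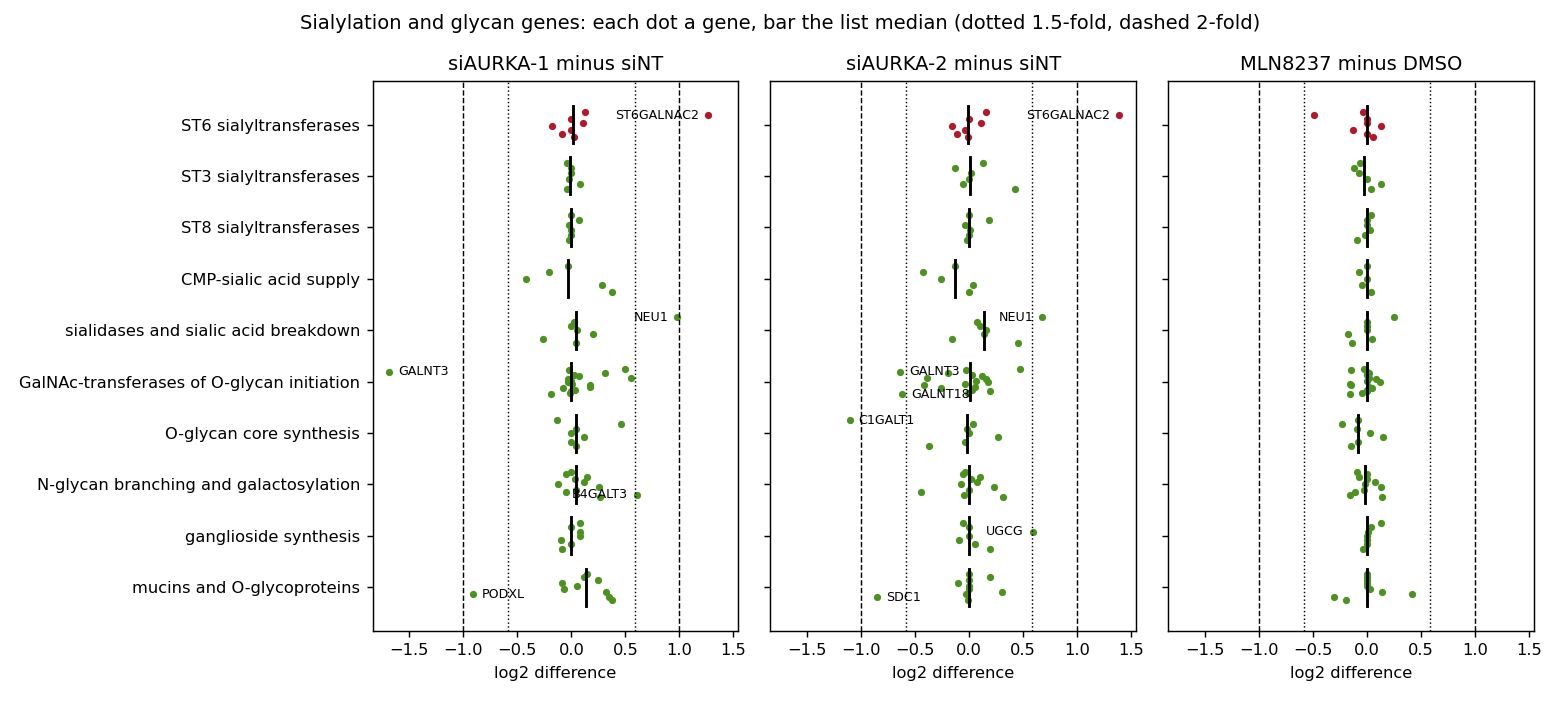
Log2 differences (horizontal axis) of the genes of the ST6 family (red) and of 9 further glycan lists (green) in 3 comparisons, with a dot for each gene and a black bar for the list's median. ST6GALNAC2 is the single gene beyond the right-hand dashed 2-fold line with the siRNAs, at 1.26 and 1.39, and every gene lies within the dotted 1.5-fold lines with MLN8237.

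Genes with the pattern most like that of ST6GALNAC2 were taken as the 8 with the smallest Euclidean distance to it over the 5 arrays, each gene set against its own mean. IFNE, encoding interferon epsilon, was closest (distance 0.60). HINT3, of the histidine triad family (0.66), CDKN1A, which encodes the cell cycle inhibitor p21 (0.70), CYP1B1, a cytochrome P450 (0.70), and GDF15, a stress-responsive cytokine (0.75), came next. CEBPD, a transcription factor (0.77), PLEKHM1, an adaptor of lysosomal fusion (0.78), and COL4A5, a basement membrane collagen chain (0.83), completed the 8. The median distance over all genes was 1.78, and the other ST6 genes were 1.69 to 1.91 away.

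As the 8 genes were picked for likeness on these arrays, high siRNA arrays were built into the choice. These genes shared the high siRNA arrays more than the low inhibitor array. Against DMSO, the siRNA differences were 1.45 and 1.12 for IFNE and 1.18 and 1.01 for HINT3, beside 1.39 and 1.52 for ST6GALNAC2. Less even were CYP1B1 (0.81 and 1.78) and CEBPD (0.46 and 1.10). With MLN8237 minus DMSO, CEBPD (-0.72) and GDF15 (-0.51) were as far below DMSO as ST6GALNAC2 (-0.49) or further. IFNE (-0.24), CYP1B1 (-0.23), HINT3 (-0.09) and PLEKHM1 (-0.04) were nearer to it, and COL4A5 (0.03) and CDKN1A (0.12) lay above it. Against siNT, MLN8237 gave -0.84 for CEBPD but 0.15 for GDF15 and 0.06 for IFNE. Of the 8 genes, 3 (IFNE, PLEKHM1 and GDF15) rest on 1 probe set, as ST6GALNAC2 does.

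**Figure D5:**
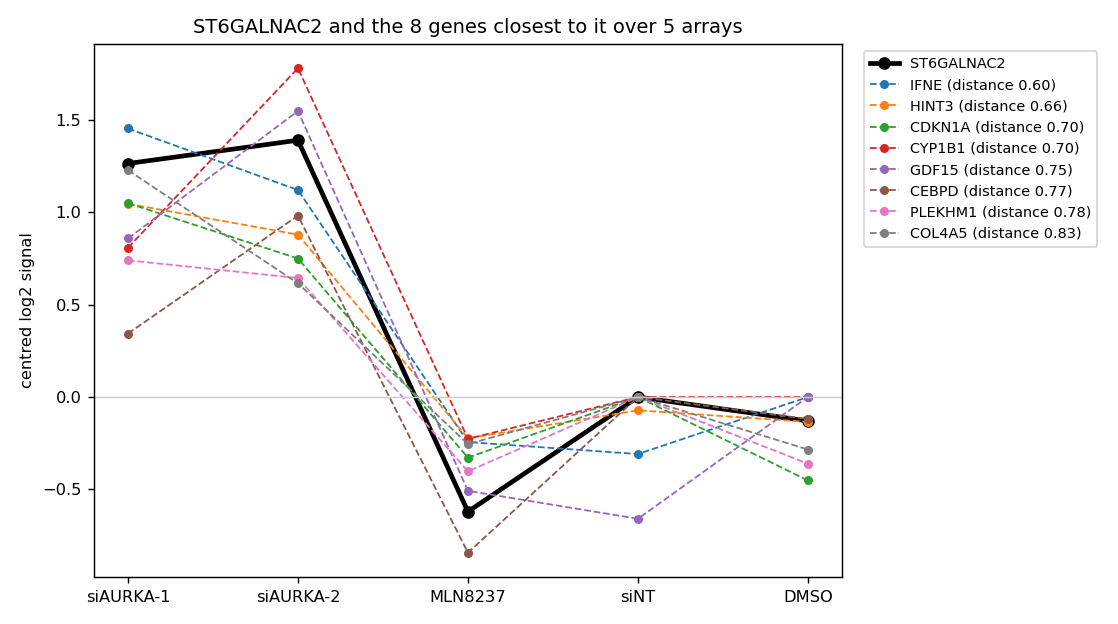
Centred log2 signal (vertical axis) of ST6GALNAC2 (thick black line) and the 8 genes nearest to it on the 5 arrays (horizontal axis), with lines joining the values of 1 gene. All 9 genes are highest on the siRNA arrays, and the MLN8237 array is the lowest for ST6GALNAC2 (-0.62), CEBPD (-0.84), HINT3, CYP1B1 and PLEKHM1, but not for IFNE, CDKN1A, GDF15 and COL4A5.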

How the data were processed

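Total RNA of 1 sample per group was labelled with biotin for the array, per the labels' protocols. The deposited signal was read as log2. RMA (background correction, quantile normalization, probe summary) is named in the submitters' processing notes. Its version, software and logarithm base were not given in the sources used here. All 49386 probe sets had a median of exactly 0 over the 5 arrays, so the authors' values were centred per probe set. Centring leaves differences between arrays intact but removes levels, so no filter on low genes could be set.

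A single gene was named by 45253 probe sets, several by 1327 and none by 2713, besides 93 controls, and symbols were updated by Entrez number to RefSeq (GRCh38.p14). A gene's value was the median of its probe sets. With 1 array per group no test was run and no p-value exists. The subtraction was run on simulated centred data without noise. Centring cancels there by construction, so this checked the calculation only and nothing about these arrays. The members, lists and rules were chosen with earlier results of these data known. Named are all members, AURKA, list genes past 1.5-fold (up to 4 per list), genes of the donor and core lists, and the 8 nearest patterns. Other genes were chosen after their values were seen. Alternatives were other probe set summaries, array centring, controls and thresholds. Calculations used Python 3.11.15, numpy 2.4.6 and pandas 2.3.3.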

Additional observations from a re-analysis of the deposited data

How the results depend on the processing

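The difference of every ST6 gene was recomputed in 208 gene, comparison and setting combinations (other probe set summaries, array centring, the other control or the mean of both), and in 208 of them it kept its side of 2-fold, with no 2-fold difference changing sign. ST6GALNAC2 ran from 1.26 to 1.39 with siAURKA-1, from 1.39 to 1.52 with siAURKA-2 and from -0.62 to -0.49 with MLN8237, the range coming from the control array. With 1 probe set, other summaries could not move it. Array centring changed no member's difference, and no member had a probe set naming several genes, so adding such probe sets changed nothing. The other 7 members reached 0.62 at most in any setting, short of 2-fold. The 208 combinations are therefore a weak check. At 3-fold the number of ST6 genes apart from siNT was 0 with siAURKA-1 and 0 with siAURKA-2, as the stricter size requires. For the 75 other glycan genes, a 2-fold size left 0 higher and 1 lower with siAURKA-1, and 0 higher and 1 lower with siAURKA-2. With DMSO as the control, 5 were 1.5-fold higher and 1 lower with siAURKA-1, and 4 higher and 3 lower with siAURKA-2. At 2-fold against DMSO, 2 were higher with siAURKA-1 and 0 with siAURKA-2. With siNT as the control, 3 were 1.5-fold lower with MLN8237. Shares of all genes were not counted for the comparisons with the other control, so these counts have no background beside them. No paired analysis was possible because each group holds 1 array, and no array could be left out for the same reason. Signal over background cannot be read from centred values, so members near background cannot be marked.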
